A study of Mus musculus with 18 samples.

Results

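The keratin gene family was taken as every protein-coding gene of the count table whose symbol is Krt followed by digits alone, which gave 49 of 54532 genes, 26 of type I and 23 of type II. Krt6a, Krt6b and the hair keratins with a letter in their symbol fall outside that rule. RNA was sequenced from 18 mouse tumours grown from PB2, a mouse breast cancer cell line, and the series title calls them xenografts. In 8 tumours the genotype was p95HER2, a HER2 receptor tyrosine kinase that lacks most of its extracellular part, and in 10 tumours it was EV, written in the sample titles as PB2-EV. All 18 tumours came from mice on doxycycline diet DOX625, so neither group was without the drug. The sources used here do not state the promoter that drives p95HER2, the number of clones, or the strain, sex and age of the mice. They also do not say that the tumours came from different mice, so a p-value here speaks of the spread among tumours, part of which may be technical.

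Keratins are the intermediate filament proteins of epithelial cells, and a filament is built from pairs of an acidic type I and a basic type II chain. Krt8 and Krt18 form the filaments of simple epithelia, Krt7 and Krt19 are added in luminal cells of the mammary gland and other ducts, and Krt5, Krt14, Krt15 and Krt17 are keratins of basal and myoepithelial cells. Krt1 and Krt10 replace the basal pair as epidermal cells differentiate, Krt6, Krt16 and Krt17 are induced in wounded or stressed epidermis, and a further large set is typical of hair.

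Library totals were 32686558 to 34804640 counts in p95HER2 tumours and 35030920 to 38464541 in EV tumours, ranges that did not overlap. Levels are given as CPM, the counts scaled to library size with TMM factors, and these are not divided by gene length. The non-keratin epithelial genes, 15 in the list with Epcam and Cdh1 among them, summed to 2293 to 2543 CPM in p95HER2 tumours and 2194 to 2521 CPM in EV tumours, so every tumour held epithelial RNA. A single tumour, EV 1, stood apart by epidermal RNA. In a list of 25 non-keratin genes of skin epidermis, 22 were highest in EV 1, 7 had counts in EV 1 and in no other tumour, and 1 had no count at all. The list summed to 41.1 to 94.8 CPM in p95HER2 tumours, to 63.0 to 94.2 CPM in the other 9 EV tumours, and to 194.7 CPM in EV 1. Lgals7, Calml3 and Sbsn of that list were present in all 18 tumours, so part of the list was expressed in every tumour. EV 1 also had the least RNA of a 15-gene skeletal muscle list, 142 CPM in sum, against 416 to 3978 CPM in p95HER2 tumours and 1909 to 7933 CPM in the other EV tumours. Results that rest on EV 1 are therefore given with and without it.

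Of the 49 keratins, 44 had a count in at least 1 tumour, 15 passed the filter on low counts and were tested, and 5 of those 15 changed. Krt7 was higher in p95HER2 tumours, while Krt15, Krt19, Krt79 and Krt83 were lower (edgeR quasi-likelihood test, Benjamini-Hochberg adjusted p under 0.05). Over all 17123 genes tested, 10.2% changed, 5.73% being higher and 4.45% lower. The median log2 fold change, p95HER2 over EV, was -0.11 for the tested keratins and -0.01 for all genes. Without EV 1, 6 keratins changed, with Krt16 and Krt17 now higher beside Krt7, and Krt15, Krt19 and Krt79 lower, where 13.7% of 17069 genes changed, 7.04% being higher and 6.62% lower. The median of the tested keratins was then 0.16. In RNA from whole tumours, a lower level can stand for fewer cells of a type or for less RNA per cell, and the counts cannot separate these.

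Markers of other cells of the tumour were compared between the genotypes too, where 10.2% of all genes tested changed, or 13.7% without EV 1. Of 10 adipocyte genes 9 were tested, and 7 were lower in p95HER2 tumours, among them Adipoq and Plin1, with a median log2 fold change of -1.79; without EV 1 it was 6 of 9 and -1.49. The list summed to 68.3 to 236.6 CPM in p95HER2 tumours and 172.4 to 475 CPM in EV tumours, and none of its genes was at 0 in all tumours. The 15 skeletal muscle genes had a median log2 fold change of -1.12 over all tumours, where edgeR called 0 (6 had an unadjusted p under 0.05, DESeq2 called 1 and limma voom 0), and without EV 1 edgeR called 8 lower, with a median of -1.27. With the muscle level as a covariate Krt15, Krt19 and Krt79 were still called lower (adjusted p = 0.00013, 0.00357 and 0.00119 by edgeR). With the adipocyte level as a covariate, which ran from 0.97 to 2.15 in p95HER2 tumours and from 1.84 to 3.59 in EV tumours as mean log2(CPM + 0.5), Krt15 and Krt19 were still called lower (log2 fold change -1.48 and -1.27, adjusted p = 0.000249 and 0.037 by edgeR). Krt7 was still called higher (1.73, adjusted p = 0.0281 by edgeR), while the calls of Krt79 (-0.57, adjusted p = 0.272) and Krt83 (-1.74, adjusted p = 0.169) ended. With this covariate 1.89% of all genes tested were called, against 10.2% with no covariate. The adipocyte level ran largely with the genotype, so calls kept or lost here cannot show the part of adipocyte RNA in them.

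**Figure D1:**
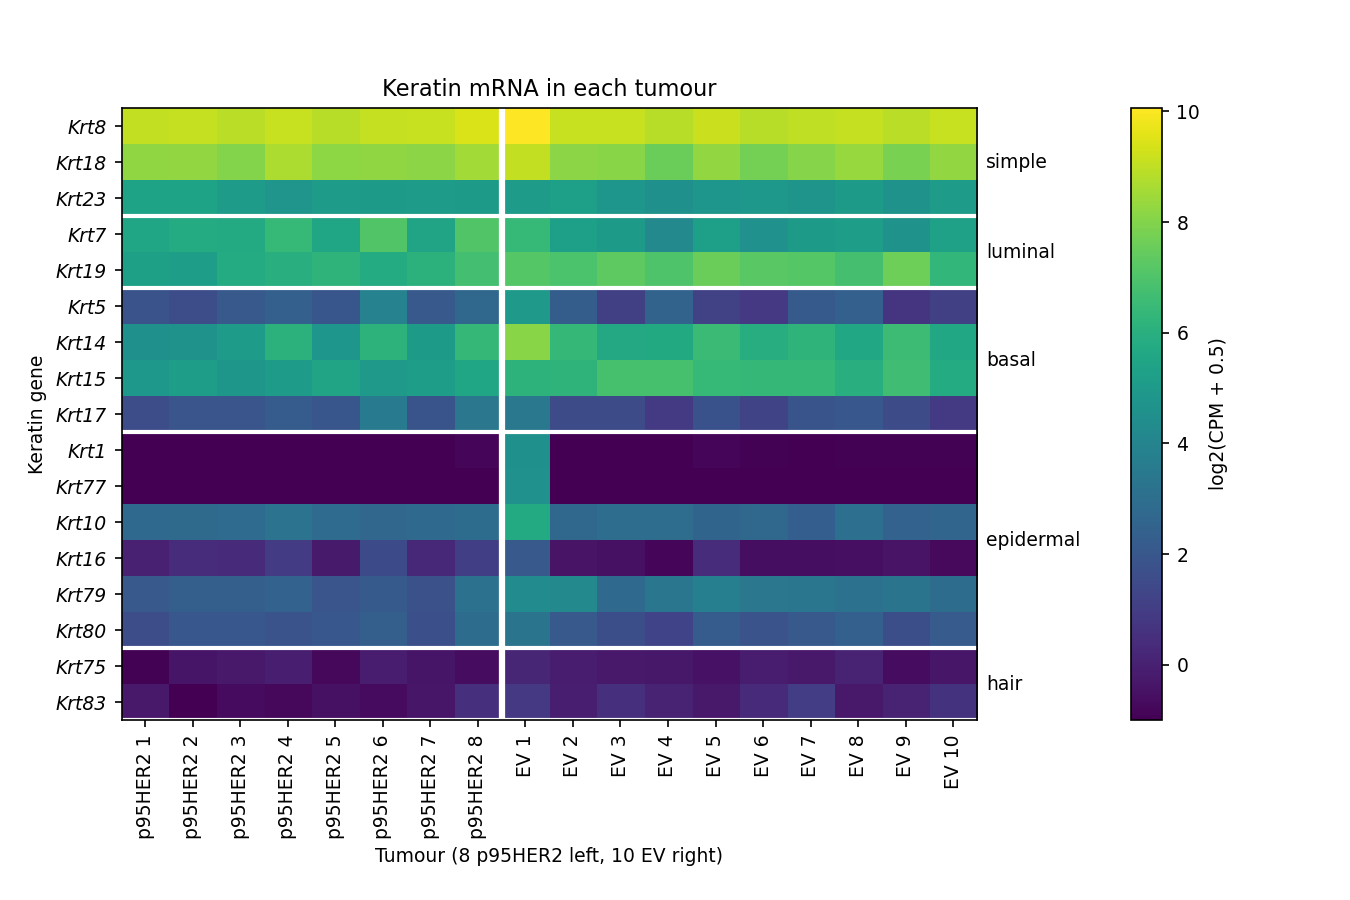
Level of 17 keratins as log2(CPM + 0.5), in colour, with 1 column per tumour (8 p95HER2 on the left, 10 EV on the right) and the genes grouped by class. The values are not scaled to gene length. Krt8 and Krt18 are the brightest rows in every tumour, Krt1 and Krt77 are lit in EV 1 alone, and Krt15 and Krt19 are darker across the p95HER2 tumours.

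**Figure D2:**
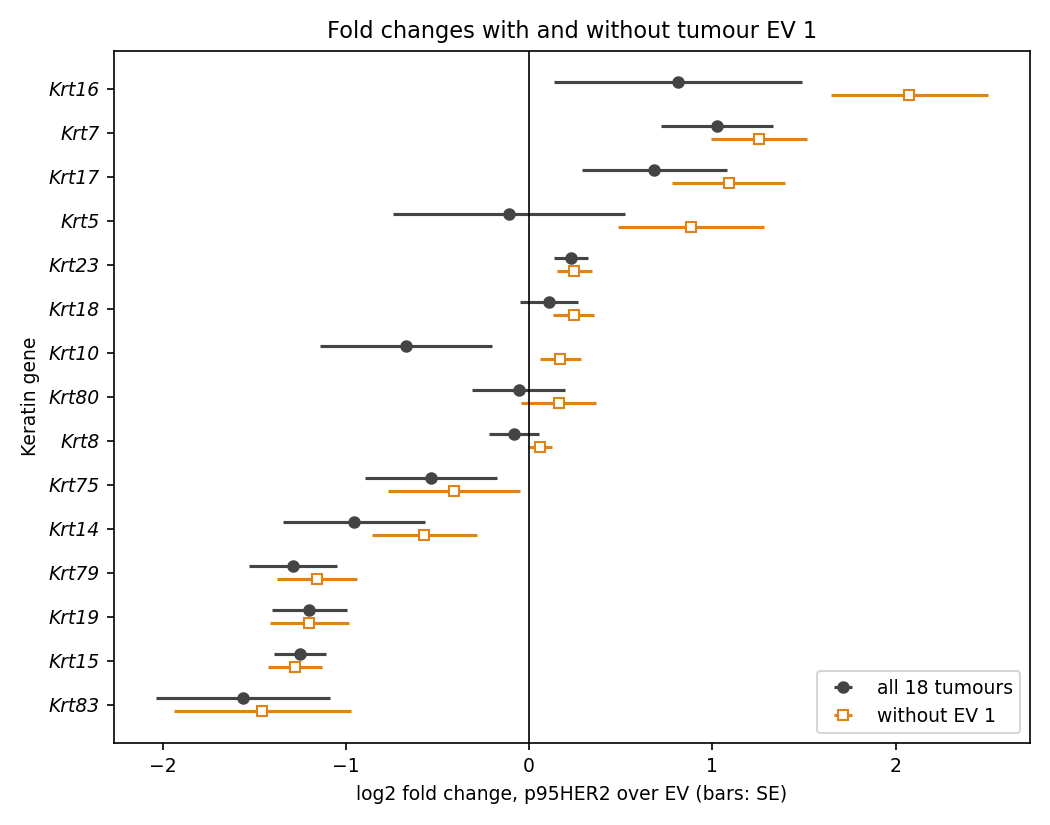
Log2 fold change of the 15 tested keratins, p95HER2 over EV, with the standard error as a bar, from all 18 tumours (filled circles) and without EV 1 (open squares). Krt15, Krt19 and Krt79 kept their place between -1.16 and -1.29, whereas Krt16 moved from 0.81 to 2.08, and Krt5, Krt8, Krt10 and Krt80 changed sign when EV 1 was left out.

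The simple keratins gave no call by edgeR, 0 of the 3 tested, with or without EV 1; 1 of them, Krt23, had an unadjusted p under 0.05, and DESeq2 and limma voom called 0. Krt8, the type II chain of simple epithelia (ENSMUSG00000049382, chr15:101996698-102004482, minus strand, mm10), had 474 CPM at the lowest, 540.0 at the median and 694 at the highest in p95HER2 tumours, against 472, 549 and 1069 CPM in EV tumours. The highest value was that of EV 1, and the other EV tumours ended at 585 CPM, so the groups overlapped over most of their range. The log2 fold change of Krt8 was -0.08 (SE 0.13, adjusted p = 0.746 by edgeR), and without EV 1 it was 0.06 (SE 0.07, adjusted p = 0.615 by edgeR). Its partner Krt18 lies next to it on the chromosome (chr15:102028180-102032027, plus strand) and had 259, 298 and 420 CPM in p95HER2 tumours, against 190, 279.6 and 525 CPM in EV tumours, again with EV 1 on top. Krt18 had a log2 fold change of 0.11 (SE 0.16, adjusted p = 0.711 by edgeR). Krt23, a further type I keratin, had 26.5 to 42.1 CPM in p95HER2 tumours and 23.3 to 37.1 CPM in EV tumours, with a log2 fold change of 0.23 (SE 0.09, adjusted p = 0.125 by edgeR). Krt20, a keratin of the gut and bladder lining, had 65 counts over all 18 tumours, 19 of them in p95HER2 tumours and 46 in EV tumours. Krt8 shares 26.9% of its 50-base stretches with its pseudogene Krt8-ps, which had 450 counts against 362601 for Krt8, and how reads from these stretches were counted is not stated in the sources used here.

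The luminal keratins moved apart: Krt7 was higher and Krt19 was lower. Krt7, the type II keratin of ducts (ENSMUSG00000023039, chr15:101411043-101430313, plus strand), had 43.3 CPM at the lowest, 55.0 at the median and 134 at the highest in p95HER2 tumours, against 17.9, 33.4 and 85.04 CPM in EV tumours. The EV median lay below all 8 p95HER2 tumours, and the only overlap came from EV 1 at 85.04 CPM, since the next EV tumour had 39.4 CPM. The means were 74.2 ± 38.3 CPM in p95HER2 tumours (SD, n = 8) and 36.5 ± 18.4 CPM in EV tumours (SD, n = 10), with a log2 fold change of 1.03 (SE 0.31, adjusted p = 0.0426 by edgeR). Without EV 1 the groups did not overlap and the log2 fold change was 1.26 (SE 0.26, adjusted p = 0.0067 by edgeR). With EV 1 kept, leaving out any of EV 2 to EV 9, or p95HER2 2, 4, 6 or 8, ended the call, with an adjusted p of up to 0.0837 by edgeR. In p95HER2 tumours the highest values were 134 CPM in p95HER2 6 and 131 CPM in p95HER2 8, and with EV 1 and either of these left out Krt7 was still called (adjusted p = 0.0105 by edgeR in both cases). Over all 18 tumours the call of Krt7 also ended with the epithelial level as a covariate (log2 fold change 0.76, adjusted p = 0.0555 by edgeR) and with no filter on low counts (adjusted p = 0.0793 by edgeR).

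Krt19, the smallest type I keratin, found in luminal and other ductal cells (ENSMUSG00000020911, chr11:100140810-100148665, minus strand), had 36.1, 58.5 and 107 CPM in p95HER2 tumours as lowest, median and highest, against 79.2, 143 and 195 CPM in EV tumours. The groups met only where p95HER2 8 at 107 CPM passed EV 10 at 79.2 CPM, and 7 of the 8 p95HER2 tumours lay below every EV tumour. Krt19 averaged 62.0 ± 22.2 CPM in p95HER2 tumours and 142 ± 35.5 CPM in EV tumours (SD, n = 8 and n = 10), with a log2 fold change of -1.20 (SE 0.20, adjusted p = 0.0018 by edgeR). EV 1 lay at the middle of its group with 143 CPM, and the log2 fold change without it was -1.20 as well. The call held with each of the 18 tumours left out in turn, with log2 fold changes of -1.35 to -1.11. Set per length, Krt7 stood at 0.165 to 0.640 of the Krt19 level in p95HER2 tumours (median 0.312) and at 0.0335 to 0.156 in EV tumours (median 0.0553). The ratio did not overlap between the groups, but it draws on the same values as the calls of Krt7 and Krt19. The length used was the union of exons, 7049 bases for Krt7 and 1855 for Krt19. If the Krt7 transcripts present are shorter, its level beside Krt19 is understated. Of 14 non-keratin luminal genes, all tested, Foxa1 and Lcn2 were higher and Muc1 was lower, and the list's median log2 fold change was 0.06. Without EV 1 these calls held, Areg was called higher as well, and the median was 0.08. Areg had a log2 fold change of 1.53 over all tumours (adjusted p = 0.0753 by edgeR) and 2.41 without EV 1 (adjusted p = 7.15e-05 by edgeR).

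**Figure D3:**
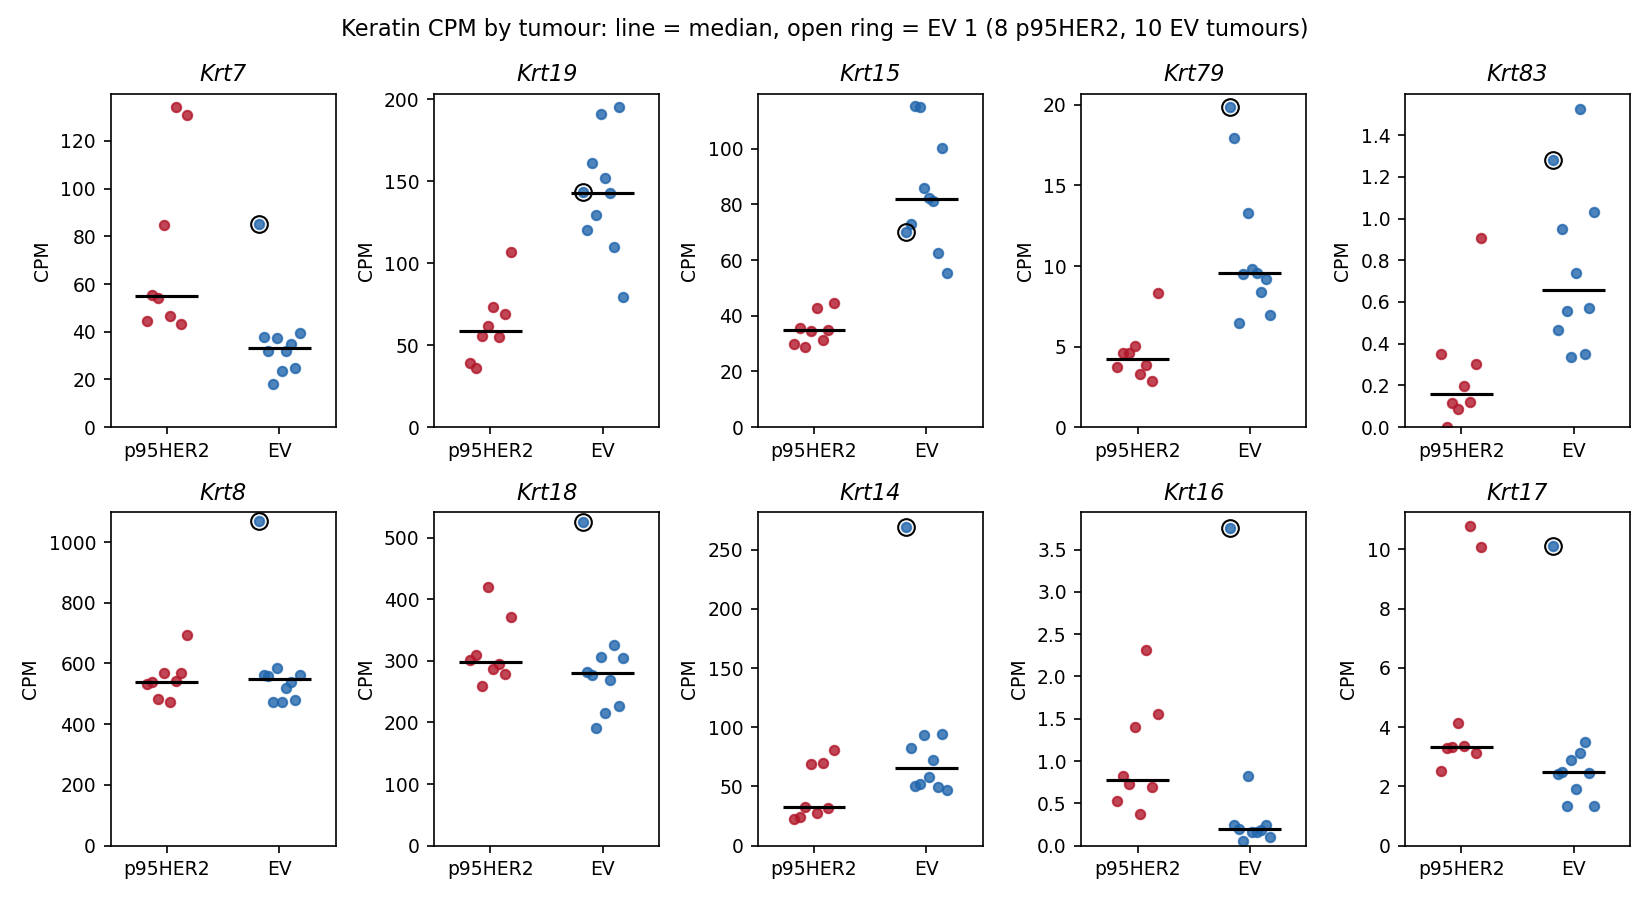
CPM of 10 keratins in each tumour (left in every panel the 8 p95HER2 tumours, right the 10 EV tumours), with the group median as a line and EV 1 ringed; each panel has its own linear axis from 0. Krt15 separates the groups in full, and Krt19 and Krt79 overlap through p95HER2 8. For Krt7, Krt8, Krt14, Krt16, Krt17, Krt18 and Krt79 the ringed tumour is the highest EV value.

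Of the keratins that changed, Krt7 and Krt79 have a promoter entry in RefSeq (GRCm38.p6), and their 250 bases before the RefSeq start, which for Krt7 lies inside the Ensembl gene, are shown because these genes differed in opposite directions. Capitals mark the letters GGGCGG on either strand, the GC box of many promoters without a TATA box. The Krt7 window is chr15:101412153-101412402 on the plus strand and holds 4 such matches, and the Krt79 window is chr15:101940325-101940574 on the minus strand and holds no match to GGGCGG, to TATAAA or to TGANTCA, the AP-1 motif.
Krt7: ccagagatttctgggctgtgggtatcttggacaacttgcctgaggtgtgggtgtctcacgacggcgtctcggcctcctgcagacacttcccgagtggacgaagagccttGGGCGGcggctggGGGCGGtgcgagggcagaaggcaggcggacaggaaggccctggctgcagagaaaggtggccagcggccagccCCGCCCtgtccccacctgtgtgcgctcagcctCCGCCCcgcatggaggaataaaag
Krt79: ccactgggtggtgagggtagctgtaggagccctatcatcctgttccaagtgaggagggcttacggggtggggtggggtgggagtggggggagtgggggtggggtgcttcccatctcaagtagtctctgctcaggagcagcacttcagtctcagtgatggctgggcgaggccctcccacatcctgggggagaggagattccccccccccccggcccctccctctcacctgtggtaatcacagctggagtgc

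Among the 35 keratins with an entry, GGGCGG was found for 2, TATAAA for 16 and TGANTCA for 1, both strands searched. Of 32851 RefSeq promoter windows of the same length, 32.7% held GGGCGG, 12.4% TATAAA and 6.7% TGANTCA. No member's level was tested against its motifs.

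Of the 4 basal keratins, all tested, Krt15 fell, and Krt5, Krt14 and Krt17 did not pass the test over all 18 tumours. Krt15, a type I keratin of basal and progenitor cells of stratified epithelia (ENSMUSG00000054146, chr11:100131758-100135928, minus strand), had 28.8, 34.8 and 44.6 CPM in p95HER2 tumours, against 55.4, 81.8 and 115 CPM in EV tumours. Every p95HER2 tumour lay below every EV tumour. The means were 35.3 ± 5.79 CPM in p95HER2 tumours and 84.1 ± 20.6 CPM in EV tumours (SD, n = 8 and n = 10), a log2 fold change of -1.25 (SE 0.14, adjusted p = 3.54e-05 by edgeR). It was called with each tumour left out in turn, with log2 fold changes of -1.30 to -1.19. Krt15 and Krt19 are direct neighbours on chromosome 11, and the longest run of letters that their coding sequences share, shown because it bears on whether a read could be counted for either, has 26 bases, from base 613 of Krt15 and base 565 of Krt19, counted from the first base of the start codon.
Krt15 and Krt19: ctgcgccgggtgctggatgagctgac

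Krt14, the type I chain of basal cells (ENSMUSG00000045545, chr11:100203162-100207548, minus strand), had 22.8, 32.4 and 81.0 CPM in p95HER2 tumours, against 47.2, 65.5 and 269.5 CPM in EV tumours. EV 1 held the 269.5 CPM, the next EV tumour had 94.5 CPM, and 5 of the 8 p95HER2 tumours lay below every EV tumour while p95HER2 4, 6 and 8 lay among them. The log2 fold change was -0.96 (SE 0.39, adjusted p = 0.128 by edgeR), and without EV 1 it was -0.57 (SE 0.29, adjusted p = 0.202 by edgeR), while limma voom with quality weights gave -0.96 over all tumours and called it (adjusted p = 0.0354). With the epithelial level as a covariate edgeR called Krt14 over all tumours (-1.22, adjusted p = 0.0191), and with the adipocyte level it gave 0.06 (adjusted p = 0.965). Its type II partner Krt5 (chr15:101707070-101712898, minus strand) had 2.60, 3.76 and 14.5 CPM in p95HER2 tumours, against 1.09, 2.82 and 30.97 CPM in EV tumours. The EV tumours other than EV 1 ended at 5.18 CPM, and p95HER2 6 with 14.5 CPM was the highest of the remaining 17. Krt5 gave a log2 fold change of -0.11 with EV 1 (SE 0.63, adjusted p = 0.94 by edgeR) and 0.88 without it (SE 0.40, adjusted p = 0.154 by edgeR). Its direction thus turned with EV 1 left out. DESeq2 on all tumours gave 0.85 for Krt5, but by default it replaces outlying counts in groups of this size. Whether it replaced the EV 1 count was not checked, so this value is not separate from leaving EV 1 out. Per length, Krt14 stood 6.02 to 18.4 times above Krt5 in p95HER2 tumours and 10.9 to 108 times above it in EV tumours. A list of 12 myoepithelial genes, all tested, had Itgb4 higher and none lower, with a median log2 fold change of 0.13, and its level, the mean log2(CPM + 0.5) of the genes, was 4.15 in p95HER2 6, the p95HER2 tumour with the most Krt5, and at most 3.86 in all others. The part of these genes in the Krt5 values was not tested.

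Krt17, a type I keratin of myoepithelial cells and of injured epidermis (ENSMUSG00000035557, chr11:100256217-100261029, minus strand), had 2.53, 3.34 and 10.8 CPM in p95HER2 tumours, against 1.33, 2.48 and 10.1 CPM in EV tumours. The EV median lay below all 8 p95HER2 tumours, p95HER2 6 and 8 were at 10.8 and 10.1 CPM, and EV 1 was the EV tumour at 10.1 CPM where the next had 3.51 CPM. Over all tumours the log2 fold change was 0.68 (SE 0.40, adjusted p = 0.289 by edgeR). Without EV 1 Krt17 rose by 1.09 on the log2 scale (SE 0.31, adjusted p = 0.0267 by edgeR), and with the skin level as a covariate its adjusted p was 0.0148 by edgeR. It was still called when p95HER2 6 or p95HER2 8 was left out together with EV 1, with adjusted p of 0.0476 and 0.0498 by edgeR.

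Krt16, which pairs with Krt6 chains in wounded and thickened epidermis (ENSMUSG00000053797, chr11:100246091-100248902, minus strand), followed the same course at a lower level. It had 0.370, 0.778 and 2.31 CPM in p95HER2 tumours, against 0.0531, 0.195 and 3.76 CPM in EV tumours. In counts, Krt16 had 283 reads in p95HER2 tumours, 138 in EV 1 and 82 in the other EV tumours together. EV 1 held the 3.76 CPM and the next EV tumour 0.829 CPM, and the EV median lay below all 8 p95HER2 tumours. The log2 fold change was 0.81 over all tumours (SE 0.68, adjusted p = 0.486 by edgeR) and 2.08 without EV 1 (SE 0.43, adjusted p = 0.0047 by edgeR), and with the skin level as a covariate its adjusted p was 0.0018 by edgeR. Krt6a, the partner of Krt16 that falls outside the naming rule, had 0.552, 1.007 and 2.27 CPM in p95HER2 tumours, against 0, 0.122 and 4.88 CPM in EV tumours. EV 1 was again the EV maximum, and without it the EV tumours ended at 0.221 CPM, below every p95HER2 tumour. Krt6a had a log2 fold change of 1.04 over all tumours (SE 0.87, adjusted p = 0.486 by edgeR) and 3.53 without EV 1 (SE 0.46, adjusted p = 0.0001102 by edgeR). By edgeR with no covariate, Krt16, Krt17 and Krt6a were called without EV 1 and not with it. With the skin level as a covariate Krt6a too was called over all 18 tumours (adjusted p = 2.29e-05 by edgeR). The skin level was 1.44 in EV 1 and -0.39 to -0.10 in all other tumours. Here and in the other results, a fit with this covariate mostly sets EV 1 apart. It is therefore not independent of leaving EV 1 out. Over all 18 tumours limma voom with quality weights called Krt16 and Krt6a (adjusted p = 0.0101 and 0.000827). Quality weights can count an outlying tumour for less. The weight given to EV 1 was not checked, so these calls are not separate from leaving EV 1 out. DESeq2, which by default replaces outlying counts, called Krt6a.

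Krt16 shares 37.6% of its 50-base stretches with other transcripts, namely Krt14, Krt17 and the predicted gene Gm11597, so its counts depend on how multiply mapped reads were treated. The longest run common to the coding sequences of Krt14 and Krt16 has 134 bases, from base 306 of Krt14 and base 282 of Krt16, and is shown because a short read inside it fits both genes.
Krt14 and Krt16: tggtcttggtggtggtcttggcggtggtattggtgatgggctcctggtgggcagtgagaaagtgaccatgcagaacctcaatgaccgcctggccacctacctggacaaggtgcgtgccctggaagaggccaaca

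Across the p95HER2 tumours, Krt14 and Krt16 shared their 3 highest tumours, p95HER2 4, 6 and 8, and so did Krt5, Krt7 and Krt17, which makes 5 of the 15 tested keratins. Krt15, Krt19 and Krt79 were highest in p95HER2 8 as well, but p95HER2 6 was not among their 3 highest; the grouping was noticed after the values were seen.

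Of the 9 epidermal keratins, 4 were tested, and Krt79 was the one that changed over all tumours. Krt79, a type II keratin known in mice from the canal of the hair follicle (ENSMUSG00000061397, chr15:101929332-101940324, minus strand), had 2.87, 4.23 and 8.31 CPM in p95HER2 tumours, against 6.44, 9.56 and 19.9 CPM in EV tumours. Of the p95HER2 tumours, 7 lay below every EV tumour, and p95HER2 8 with 8.31 CPM overlapped the lowest EV values. Krt79 averaged 4.54 ± 1.69 CPM in p95HER2 tumours and 11.1 ± 4.53 CPM in EV tumours (SD, n = 8 and n = 10), with a log2 fold change of -1.29 (SE 0.24, adjusted p = 0.0027 by edgeR). Without EV 1, which had the 19.9 CPM, the log2 fold change was -1.16 (SE 0.22, adjusted p = 0.0026 by edgeR), and the call held with each tumour left out in turn. In the skin list 7 of 25 genes were tested, Sbsn and Lgals7 were lower and none was higher, with a median log2 fold change of -0.92. Without EV 1, Sbsn alone of 6 was lower and the median was -0.60. Other skin genes that did not pass differed in sign: Klk7 had a log2 fold change of 1.73 over all tumours (adjusted p = 0.268 by edgeR), and Lor had -1.67 over all tumours and 0.45 without EV 1 (adjusted p = 0.258 and 0.448 by edgeR). With the skin level as a covariate, which mostly sets EV 1 apart, Krt79 was still called (adjusted p = 0.0019 by edgeR). With the adipocyte level as a covariate Krt79 was not called (log2 fold change -0.57, adjusted p = 0.272 by edgeR). In that fit 1.89% of all genes tested were called, against 10.2% with no covariate.

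Counts of Krt1, Krt2 and Krt77, keratins of differentiated epidermis, lay almost wholly in EV 1. Krt1 had 856 of its 864 counts in that tumour, 2 in p95HER2 tumours and 6 in the other EV tumours. Krt77 had all of its 872 counts there, and Krt2 had 31 of 32. Krt78, of which EV 1 held 27 of 80 counts, and Krt9, a keratin of palms and soles with 9 of 99 counts in EV 1, were spread over more tumours. Krt10, the type I partner of Krt1 (chr11:99385254-99389364, minus strand), had 5.79, 6.70 and 8.86 CPM in p95HER2 tumours, against 4.51, 5.96 and 54.2 CPM in EV tumours. EV 1 held the 54.2 CPM, and the other EV tumours, at up to 7.65 CPM, overlapped the p95HER2 tumours, so low Krt10 was present where Krt1 was not. Krt10 gave a log2 fold change of -0.67 (SE 0.47, adjusted p = 0.391 by edgeR) with EV 1 and 0.17 (SE 0.11, adjusted p = 0.346 by edgeR) without it. DESeq2, with its default replacement of outlying counts, gave 0.16 over all tumours. Krt80, a type II keratin of several epithelia, had 2.53 to 7.08 CPM in p95HER2 tumours and 1.86 to 9.02 CPM in EV tumours, with a log2 fold change of -0.06 (SE 0.25, adjusted p = 0.92 by edgeR). Krt10, Krt80, Krt7 and Krt8 each overlap a noncoding gene on the opposite strand, and the sources used here do not state the strand setting of the counting.

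**Figure D4:**
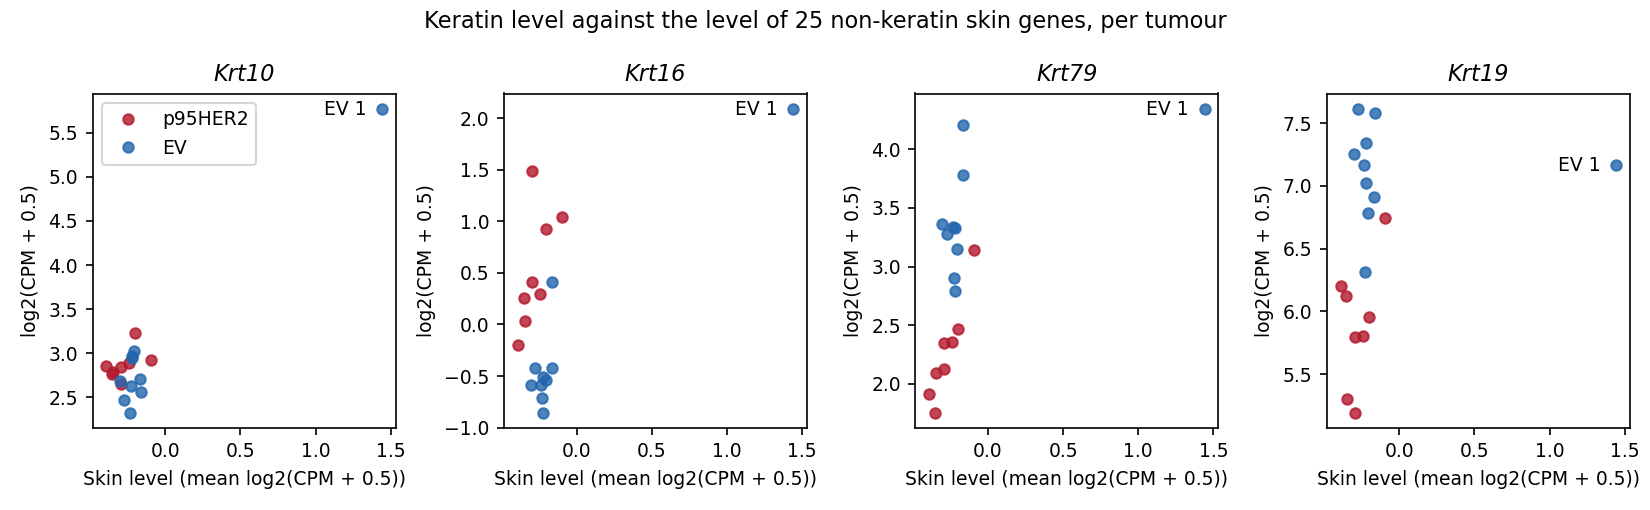
Level of Krt10, Krt16, Krt79 and Krt19, as log2(CPM + 0.5), against the mean log2(CPM + 0.5) of the 25 non-keratin skin genes, with 1 point per tumour (8 p95HER2, 10 EV). EV 1 lies alone at a skin level of 1.44 while all other tumours lie between -0.39 and -0.10. Krt79 climbs with the mean of these genes among the p95HER2 tumours, where the mean does not stand for skin content alone.

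The skin level of a tumour, the mean log2(CPM + 0.5) over the 25 skin genes, was -0.39 to -0.10 in p95HER2 tumours, -0.30 to -0.16 in 9 EV tumours and 1.44 in EV 1. The level of each tested keratin was set against it within each group, 30 relations in all, with p-values from permutations and BH adjustment over the 30, called under 0.05. Among the 10 EV tumours Pearson's r passed for Krt5, Krt7, Krt8, Krt16, Krt18 and Krt79, and Spearman's rho passed for none. EV 1 and EV 6 lay farthest from the median skin level, and without that pair r was 0.366 for Krt5, against 0.860 over all 10, 0.488 for Krt7, against 0.821, 0.465 for Krt18, against 0.813, and 0.535 for Krt16, against 0.935. It was 0.684 for Krt8, against 0.961, and 0.656 for Krt79, against 0.643. All but that of Krt79 were thus weaker without the pair. Krt10, at r = 0.974 over the 10 EV tumours (permutation p = 0.0313, BH-adjusted 0.0783), had r = 0.232 without EV 1 and EV 6. Krt19 and Krt15 had r of 0.0333 and -0.235 in EV tumours (permutation p = 0.925 and 0.53). Among the 8 p95HER2 tumours only Krt79 passed, with r = 0.949 and rho = 0.976 (exact permutation p = 0.00067 and 0.000397, BH-adjusted 0.0137 and 0.0119). Without p95HER2 8 and p95HER2 5, r for Krt79 was 0.857. With a pseudocount of 0.1 in place of 0.5, 3 relations among p95HER2 tumours lost an unadjusted permutation p under 0.05. A further 1 gained it and 11 stayed the same, as did all 15 among EV tumours. Of the skin list, Flg, Flg2 and Hrnr had no count in p95HER2 tumours, while Lgals7 had 14.5 to 51.6 CPM there. The level among p95HER2 tumours thus cannot be read as skin content alone, and the part of skin in Krt79 was not tested. In EV tumours r for Krt79 was 0.643 and rho 0.467 (permutation p = 0.00897 and 0.177, BH-adjusted 0.0393 and 0.332), and r was 0.484 without EV 1.

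Hair keratins had few counts in every tumour. Of 13 genes of the hair shaft, 5 had no count (Krt31, Krt34, Krt81, Krt82 and Krt86), and Krt83 was the single one tested. Krt83, a type II hair keratin (chr15:101485130-101491512, minus strand), had 0 to 0.907 CPM in p95HER2 tumours with a median of 0.160, against 0.337 to 1.52 CPM in EV tumours with a median of 0.656. In counts this was 71 reads over the 8 p95HER2 tumours, 31 of them in p95HER2 8, and 285 over the 10 EV tumours, and 6 of the 8 p95HER2 tumours lay below every EV tumour. The log2 fold change was -1.56 (SE 0.48, adjusted p = 0.0408 by edgeR), a call that held with EV 2, EV 4, EV 5, EV 8 or p95HER2 8 left out and ended with any of the other 13 left out. Without EV 1 the log2 fold change was -1.46 (adjusted p = 0.0504 by edgeR). Over all tumours the call also ended with the skin, the epithelial or the adipocyte level as a covariate (adjusted p = 0.0523, 0.0525 and 0.169 by edgeR) and with no filter on low counts (adjusted p = 0.0772 by edgeR). Of all genes tested, 1.89% were called with the adipocyte level, against 10.2% with no covariate. Krt83 shares 23.2% of its 50-base stretches with Krt81, Krt86 and Krt87, of which Krt81 and Krt86 had no count. Of 8 keratins of the inner root sheath and its companion layer, Krt75 was tested, at 0.0291 to 0.447 CPM in p95HER2 tumours and 0.136 to 0.654 CPM in EV tumours (log2 fold change -0.54, SE 0.36, adjusted p = 0.363 by edgeR). Counts of some others lay in few tumours: Krt71 had 8 counts in p95HER2 2, 11 in p95HER2 3 and 3 in the EV tumours together, Krt27 had 7 and 6 in the same pair, and Krt73 had 12 of its 17 counts in EV 1. A list of 17 non-keratin hair follicle genes had 4 tested, with Lhx2 higher and none lower.

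None of the 5 keratins of mucosa and cornea or the 4 remaining ones passed the filter on low counts. Krt13, of the lining of the mouth and oesophagus, had 93 counts over all tumours, 33 in p95HER2 tumours and 60 in EV tumours, and Krt4, its partner, had 8. Krt42, a mouse type I keratin, had 26 of its 83 counts in p95HER2 6. In all, 27 of the 34 untested keratins had between 1 and 99 counts over the 18 libraries. With no filter on low counts edgeR called none of these, and counts this low leave little to compare between groups.

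Per length of the exons, the simple pair made up most keratin mRNA in every tumour. Krt8 and Krt18 together were 76.7% to 83.9% of the summed keratin CPM per kilobase in p95HER2 tumours, with a median of 80.9%, and 62.4% to 78.7% in EV tumours, with a median of 69.5%. Of the EV tumours EV 10 alone, at 78.7%, reached into the p95HER2 range. Krt8 made up 45.2% ± 2.59 in p95HER2 tumours and 41.6% ± 1.91 in EV tumours, and Krt18 35.2% ± 2.88 in p95HER2 tumours and 28.4% ± 3.48 in EV tumours (SD, n = 8 and n = 10). Krt19 followed with 5.31% ± 1.47 in p95HER2 tumours and 11.2% ± 3.32 in EV tumours, while Krt14 made up 3.94% ± 1.65 in p95HER2 tumours and 6.42% ± 2.39 in EV tumours, and Krt15 3.23% ± 0.516 in p95HER2 tumours and 7.08% ± 2.45 in EV tumours. The summed level was 531 to 798 CPM per kilobase in p95HER2 tumours (median 592) and 566 to 1284 in EV tumours (median 655), with EV 1 at 1284 and the next EV tumour at 749. Type II chains stood at 0.909 ± 0.083 of type I chains in p95HER2 tumours and at 0.763 ± 0.070 in EV tumours (SD, n = 8 and n = 10), with EV tumours up to 0.879 inside the p95HER2 range of 0.750 to 1.011. Shares add up to the whole, so a lower share of Krt19, Krt14 and Krt15 raises the others, and no test was run on them. The shares and the ratio of type II to type I also depend on the union of exons, 7049 bases for Krt7 and 6393 for Krt80. Where the transcripts present are shorter, the level per length is understated.

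**Figure D5:**
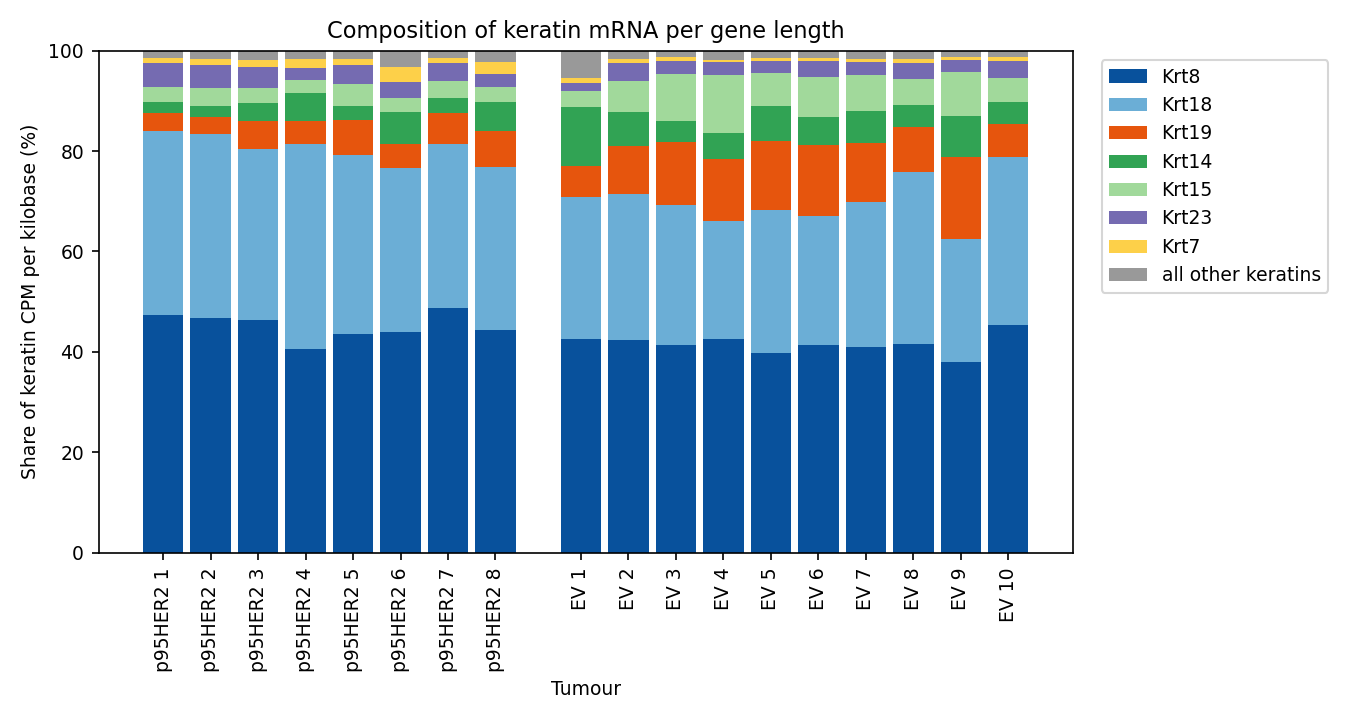
Composition of keratin mRNA in each tumour as shares of the summed CPM per kilobase of exon, in percent, for 7 keratins and all others together (8 p95HER2 tumours left, 10 EV tumours right). Krt8 and Krt18 fill 76.7% to 83.9% of the p95HER2 bars and 62.4% to 78.7% of the EV bars, and EV 1 has the widest grey band and the widest Krt14 band.

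Apart from Krt18, type I keratins lie in a cluster of 1037 kb on chromosome 11, from Krt222 to Krt42, and type II keratins with Krt18 in a cluster of 684.6 kb on chromosome 15, from Krt80 to Krt18. Directions were mixed within both clusters: on chromosome 11 Krt15 and Krt19 fell while Krt16 and Krt17, further along, had positive log2 fold changes, and on chromosome 15 Krt7 rose and Krt79 fell. Other genes in and within 500 kb of the chromosome 11 cluster numbered 35 tested, with 4 higher, none lower and a median log2 fold change of 0.04. Around the chromosome 15 cluster 33 were tested, Krt6a among them, with 1 higher, 3 lower and a median of -0.01. Over all genes tested 10.2% changed, 5.73% being higher and 4.45% lower. Neither neighbourhood was tested against these shares, and counts this small cannot settle whether one differs from them.

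Proteins that hold keratin filaments or share the cytoskeleton with them, 19 genes with desmoplakin, plakins and plakophilins among them, were all tested, and Vim alone was called. Vim, the intermediate filament gene of mesenchymal cells, fell, with 165 ± 29.9 CPM in p95HER2 tumours and 214 ± 37.0 CPM in EV tumours (SD, n = 8 and n = 10; log2 fold change -0.37, SE 0.12, adjusted p = 0.0443 by edgeR). The Vim call ended with 14 of the 18 tumours left out, each in turn, with an adjusted p of up to 0.0917 by edgeR. A list of 12 fibroblast genes had Postn lower and a median log2 fold change of -0.40, and a list of 12 macrophage genes had 6 lower and a median of -0.61; both cell types express Vim, and their part in its level was not tested. Pkp1, a desmosome plaque protein, had 15.4 ± 6.49 CPM in p95HER2 tumours and 8.37 ± 5.46 CPM in EV tumours (adjusted p = 0.117 by edgeR), and without EV 1 it rose by 1.13 on the log2 scale (adjusted p = 0.0222 by edgeR). Of 22 regulators of keratin genes and epithelial differentiation, 19 were tested, with a median log2 fold change of 0.08. Foxa1, a factor of luminal cells, rose, with 100.3 ± 11.01 CPM in p95HER2 tumours and 79.2 ± 11.9 CPM in EV tumours (SD, n = 8 and n = 10; log2 fold change 0.34, SE 0.08, adjusted p = 0.0145 by edgeR), while Trp63, the factor of basal cells, had a log2 fold change of 0.19 (SE 0.19, adjusted p = 0.559 by edgeR).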

How the data were processed

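The deposited table holds raw counts of reads by Ensembl gene, a column for each tumour, which the authors had not normalized. STAR 2.5, HTSeq 0.6.1 and build mm10 are named in the submitters' processing notes; the sources used here do not state the strand option or annotation release, and per the labels' protocols the libraries were directional and mRNA-enriched. Genes were kept by filterByExpr (minimum count 10, minimum total 15), scaled by TMM and tested with edgeR 4.0.16 (robust quasi-likelihood, R 4.3.3), p95HER2 against EV without covariates, BH-adjusted over 17123 genes. Keratin members, their classes and the gene lists were chosen with earlier results of these data known. The genes named are every tested keratin, the untested ones by counts, and called genes of the partner and regulator lists. Levels between genes were compared per kilobase of the union of exons in GENCODE vM21, which is built on the same genome, and coordinates are 1-based. Correlations used 100000 resamples for EV and all 40320 pairings for p95HER2 (scipy 1.17.1). They were run again with RLE scaling and with a pseudocount of 0.1. Tumours were numbered in accession order. The gene test was tested on simulated data. Alternatives were RLE scaling, library totals, DESeq2 1.42.0, voom with quality weights in limma 3.58.1, the low-count filter dropped or set at 1 CPM, skin or epithelial level as a covariate, and each tumour left out; skeletal muscle or adipocyte level as a covariate, EV 1 left out with p95HER2 1, 6 or 8, and EV 1 left out with the gene set held were added after seeing the data. The group runs with library total and with the order of the tumour tags, so it cannot be told apart from differences in handling that follow either.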

Additional observations from a re-analysis of the deposited data

Results flagged for a closer look

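EV 1 lay far from the other EV tumours in 9 of the values examined. The measure was the gap from the highest or the lowest tumour to the next, divided by the whole range of the group on the log2(CPM + 0.5) scale. Both ends of each group were examined, with a critical value of 0.466 for 10 tumours and 0.526 for 8. In EV 1 it was 0.574 for Krt5, 0.496 for Krt7, 0.739 for Krt8, 0.797 for Krt10, 0.603 for Krt14, 0.571 for Krt16, 0.553 for Krt17 and 0.47 for Krt18. For the skin level it was 0.921. In all of these EV 1 was the highest EV tumour. Among p95HER2 tumours 1 value stood out, Krt10 in p95HER2 4, at 0.528 with 8.86 CPM where the next had 7.08 CPM. Chance flags about 1 in 20 groups, and 32 groups were examined, 15 keratins and the skin level in each genotype.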

How the results depend on the processing

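Krt15 and Krt19 kept their direction and their call under every alternative run, and Krt79 under all but the adipocyte level as a covariate. With that covariate, 324 genes were called, against 1743, 252 of them higher and 72 lower, and 2 keratins were higher and 2 lower; the log2 fold change was 1.76 for Krt5, 0.231 for Krt8, 0.86 for Krt10, 0.0617 for Krt14 and 0.594 for Krt80. The number of genes called lower, 762 over all genes, was 1180 with the skin level as a covariate, 1249 and 1147 with EV 1 and p95HER2 6 or 8 left out, and 489 to 1130 with 1 tumour left out. The number of keratins called, 5, was 3 with no filter on low counts and 3 to 6 with 1 tumour left out. The number called higher, 1, was 0 with no filter or with the epithelial level as a covariate, 2 with limma voom, 3 with the skin level as a covariate and 3 in each of the settings that left out EV 1 with p95HER2 1, 6 or 8 or held the gene set, and 0 to 3 with 1 tumour left out. Krt5, at -0.11, was 0.85 with DESeq2, 0.60 with voom, 1.01 with the skin level and 0.27 with the muscle level as a covariate, 0.97, 0.46 and 0.85 with EV 1 and p95HER2 1, 6 or 8 left out, 0.89 without EV 1 on the same genes, and -0.53 to 0.88 with 1 tumour left out. Krt8, at -0.08, was 0.094 with the skin level, 0.069, 0.061 and 0.0016 without those pairs, 0.057 on the same genes, and -0.14 to 0.058 with 1 left out. Krt10, at -0.67, was 0.16 with DESeq2, 0.028 with voom, 0.26 with the skin level, 0.19, 0.20 and 0.16 without those pairs, 0.17 on the same genes, and -0.76 to 0.17 with 1 left out. Krt18, at 0.11, was -0.045 with the epithelial and -0.013 with the muscle level. Krt80, at -0.06, was 0.036 with voom, 0.21 with the skin level, 0.23 and 0.12 without EV 1 and p95HER2 1 or 6, 0.16 on the same genes, and -0.24 to 0.16 with 1 left out. None of the values of opposite sign passed the test, and the cause was not tested. DESeq2 by default replaces outlying counts, so its values for Krt5 and Krt10 may not hold the EV 1 count. The quality weights of voom can likewise count an outlying tumour for less, and the weight of EV 1 was not checked. No paired analysis was possible because the labels give no replicate numbers and the numbers used here follow accession order. Depth limits Krt75, Krt83 and Krt16, with 203, 356 and 503 counts over all tumours, and the 27 untested keratins with 1 to 99 counts.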
